A study of Mus musculus with 19 samples.

Results

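The enzymes that make and conjugate bile acids were examined in mouse liver with and without Raly, which encodes an RNA-binding protein of the heterogeneous nuclear ribonucleoprotein family. They are 10 genes taken by symbol, out of 24054 symbols in the deposited RNA-seq table: Cyp7a1 and Cyp8b1 of the classic pathway, Cyp27a1, Cyp7b1 and Cyp39a1 of the alternative pathway, Hsd3b7, Akr1d1 and Amacr, which modify the ring and the side chain, and Slc27a5 and Baat, which conjugate the product. All 10 were in the table and all 10 passed the filter on low values. The genes were taken by their function in the pathway, with earlier results of these data known.

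The study asked what RALY contributes to liver metabolism. All 6 mice were Raly flox/flox on a C57BL/6 background, chow-fed, and per the methods male unless otherwise specified, with no age given in the sources used here. The 3 L-RalyKO mice had received AAV8.TBG.Cre and the 3 controls, littermates that carry the same floxed alleles and that the labels call wild type, had received AAV8.TBG.GFP. The TBG promoter drives expression in hepatocytes, so other liver cells keep Raly, and tissue was taken 4 weeks after the virus. Each library was made from the liver of 1 mouse, and in bulk liver fewer cells of a type and less RNA per cell cannot be told apart.

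The deposited value of a gene is its read count scaled to the effective size of its library (CPM), without division by gene length, and values below are in this unit. Libraries held between 28302983 and 38052705 reads on genes, and 3 reads are worth a value of 0.0789 to 0.105. The members had at least 430 reads in every mouse, and there were 3 mice in each group. Raly itself was measured at 6.34, 6.61 and 7.39 in L-RalyKO mice 1 to 3 and at 50.1, 48.6 and 46.8 in control mice 1 to 3, a log2 fold change of -2.67 (SE 0.069, limma adjusted p = 6.92e-07). The first principal component (50.8% of the variance of log2 values) separated the groups. On the second component control mice 2 and 3 lay furthest apart, at -10.5 and 14.5, with control mouse 1 between them at -2.89. By chi-square per degree of freedom, control mouse 1 stood apart from the other controls, at 71.1 and 84.3 against control mice 2 and 3. The value was 18.2 between those mice and 12.6 to 27.4 between L-RalyKO mice. Calls that were lost without control mouse 1 are named beside the gene.

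Bile acids are made from cholesterol in hepatocytes, and their synthesis is a main route by which the body disposes of cholesterol. The classic pathway starts with 7-alpha-hydroxylation of the ring by CYP7A1, which limits its rate, and CYP8B1 decides how much cholic acid is formed. The alternative pathway starts with oxidation of the side chain by CYP27A1, and the oxysterols so formed are hydroxylated by CYP7B1. CYP39A1, counted here with the same pathway, hydroxylates a different oxysterol, whose side chain is oxidized by another enzyme. Bile acids that return to the liver repress Cyp7a1 and Cyp8b1 through the receptor FXR, its target SHP and the gut hormone signal read by FGFR4 and beta-Klotho.

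In GENCODE vM1 on NCBIM37 (mm9), the build of the deposited table, Cyp7a1 (ENSMUSG00000028240.2) lies at chr4:6192759-6202780 on the - strand with 6 exons, and Cyp8b1 (ENSMUSG00000050445.4) at chr9:121823474-121825423 on the - strand in 1 exon. Cyp27a1 (ENSMUSG00000026170.5) lies at chr1:74760148-74784464 on the + strand with 9 exons, Cyp7b1 (ENSMUSG00000039519.6) at chr3:17971950-18143338 on the - strand with 6, and Cyp39a1 (ENSMUSG00000023963.8) at chr17:43804374-43888380 on the + strand with 12. Hsd3b7 (ENSMUSG00000042289.5) is at chr7:134929122-134947316 on the + strand and Akr1d1 (ENSMUSG00000038641.8) at chr6:37480173-37518815 on the + strand. Slc27a5 (ENSMUSG00000030382.8) is at chr7:13573695-13583541 on the - strand, Baat (ENSMUSG00000039653.3) at chr4:49502294-49519429 on the - strand and Amacr (ENSMUSG00000022244.6) at chr15:10911511-10926379 on the + strand. Exon counts are those of the transcript with the longest coding sequence. None of the 10 transcripts shared a stretch of 50 bases with the coding transcripts of another gene. The annotated exons of Hsd3b7 overlap those of Setd1a on the same strand over 3523 bases (57.2% of its exon bases), so reads of these 2 genes could be split by the counting, and the value of Hsd3b7 is uncertain to that extent.

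The promoters of Cyp27a1, the member with the smallest adjusted p, and of Cyp8b1, which varied most between control mice, are shown from 250 bases before to 50 bases after the RefSeq transcription start (GRCm38.p6), because one holds CCAAT boxes, the letters read by NFY, a factor the study connects with RALY, and the other the letters of an HNF4A site. RefSeq promoter sequences were matched for 4 of the 10 members, these and those of Akr1d1 and Hsd3b7. In the first line (chr1:74713285-74713584, + strand) capitals mark ATTGG, which is CCAAT on the other strand. In the second (chr9:121916256-121916555, - strand) they mark CAAAGTCCA, a core of the HNF4A site, and TATAAA, the TATA box.
Cyp27a1 promoter: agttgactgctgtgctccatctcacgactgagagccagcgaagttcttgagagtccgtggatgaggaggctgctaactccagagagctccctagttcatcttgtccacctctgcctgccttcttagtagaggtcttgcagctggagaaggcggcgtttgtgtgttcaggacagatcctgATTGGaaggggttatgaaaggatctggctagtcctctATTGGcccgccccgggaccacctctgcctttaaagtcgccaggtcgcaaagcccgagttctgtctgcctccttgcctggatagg
Cyp8b1 promoter: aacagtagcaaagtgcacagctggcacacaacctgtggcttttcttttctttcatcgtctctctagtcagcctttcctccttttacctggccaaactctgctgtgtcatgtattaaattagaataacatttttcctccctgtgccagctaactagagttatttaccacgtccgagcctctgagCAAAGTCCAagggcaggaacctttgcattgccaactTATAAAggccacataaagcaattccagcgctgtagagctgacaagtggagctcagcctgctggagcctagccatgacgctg

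Both strands were searched for 7 short motifs, of which AGGTCA and CAAGGTCA overlap, as the longer one contains the shorter. In Cyp27a1 the letters ATTGG began 71 and 34 bases before the start, and CCAAT on either strand was present in 37.4% of 32851 RefSeq mouse promoters of this length. In Cyp8b1 CAAAGTCCA began 67 bases and TATAAA 31 bases before the start, and these were present in 0.475% and 13.6% of all promoters. In Akr1d1, TGACCT, the nuclear receptor motif AGGTCA on the other strand, began 232 and 210 bases before the start, and AGGTCA was present in 16.3% of all promoters. CAAGGTCA, the letters of an NR5A2 site (1.56%), TGTTTAC of forkhead factors (3.65%) and GTTAAT of HNF1 (7.10%) were in none of the 4. A match describes letters only, and no binding was measured here.

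Cyp27a1 and Cyp7b1 rose in L-RalyKO livers, by 1.26-fold and 1.34-fold, and no member fell by the test. Cyp7a1 and Cyp8b1 varied among the L-RalyKO mice by more than the group means differed. The test was limma on log2(value + 1) with p adjusted over 11580 genes by the Benjamini-Hochberg method, and a gene was called at an adjusted p under 0.05. By this rule 2 of 10 members were called higher, beside 3.36% of all genes tested (389), and 0 lower, beside 3.19% (369). With total count scaling in place of the deposited scaling the split over all genes was 324 higher and 469 lower. At an unadjusted limma p under 0.05, 4 members were higher and 2 lower, beside 11.8% and 10.9% of all genes. Of the other tools, edgeR and limma voom called no member lower and DESeq2 called 1, Hsd3b7. Over all genes edgeR called 3.25% higher and 3.07% lower, limma voom 3.27% and 3.08%, and DESeq2 4.65% and 4.72%, or 538 and 546 genes. The values of 4 members in the L-RalyKO mice were all above, and those of 2 all below, those in the controls, beside 14.4% and 13.7% of genes tested. The members' median log2 fold change was 0.16, and that of all genes tested was 0.0044. The count of 2 depended on single mice, as it was 0 without L-RalyKO mouse 1 or without control mouse 1, and 1 without L-RalyKO mouse 2, L-RalyKO mouse 3 or control mouse 2.

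**Figure D1:**
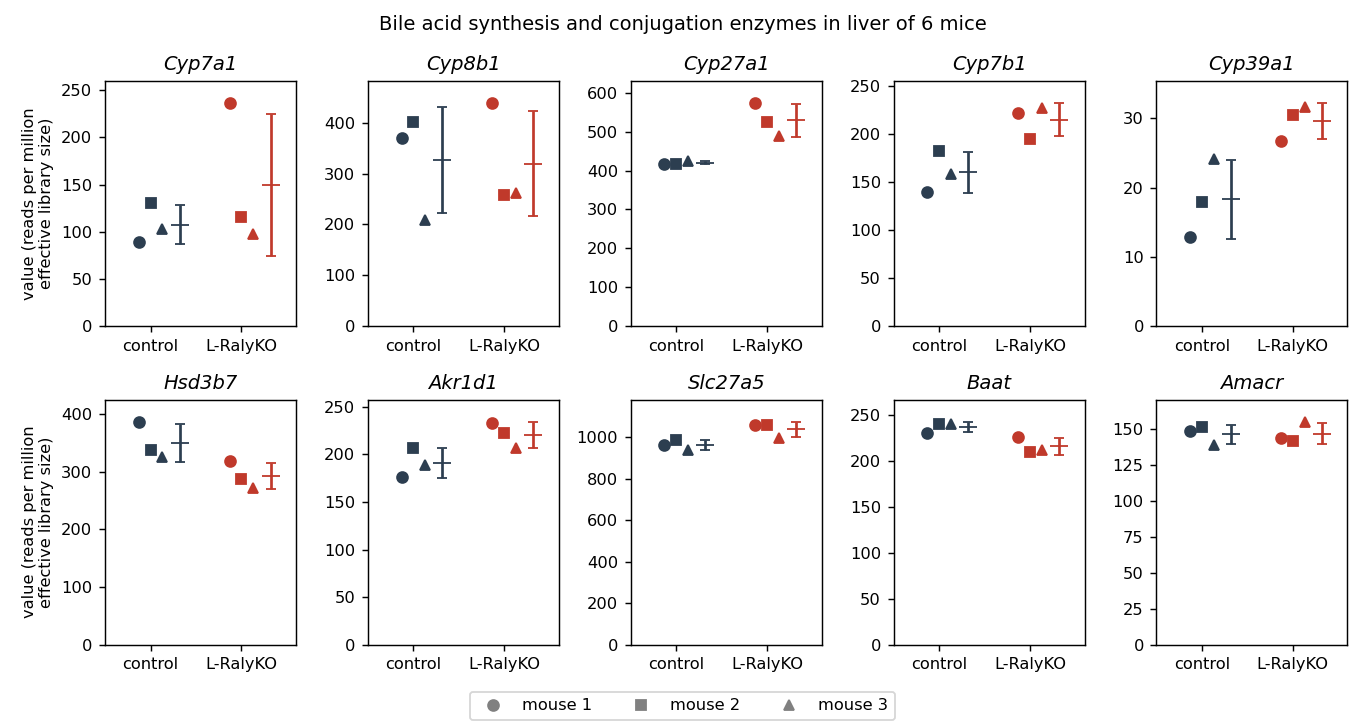
Deposited value (CPM of effective library size, axis from 0) of the 10 enzymes in control and L-RalyKO mice 1 to 3 (symbols), with the group mean and SD (bars). Cyp27a1 lies between 417 and 425 in the controls and at 488 or above in the L-RalyKO mice, whereas Cyp8b1 spans 208 to 402 in the controls alone.

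Cyp7a1 was measured at 236, 116 and 97.6 in L-RalyKO mice 1 to 3 and at 89.6, 131 and 102 in control mice 1 to 3. L-RalyKO mouse 1 was 2.42-fold above the lowest mouse of its group, and the other L-RalyKO mice lay within the range of the controls. The means were 150 ± 75.3 and 108 ± 20.9 (SD, n = 3 mice a group). The log2 fold change was 0.38 (95% interval -0.27 to 1.04, limma adjusted p = 0.48). Leaving out L-RalyKO mouse 1 left a log2 fold change of 0.0012, so the higher mean came from that mouse. An exact two-sided permutation test gave p = 0.6 for Cyp7a1, and with 3 mice against 3 it cannot give less than 0.1 for any gene.

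Cyp8b1, the sterol 12-alpha-hydroxylase, was measured at 439, 259 and 262 in L-RalyKO livers and at 370, 402 and 208 in control livers. Each group held high and low mice, and the groups overlapped throughout. The means, 320 ± 103 and 327 ± 104, differed by a log2 fold change of -0.02 (limma adjusted p = 0.975). The 95% interval of the fold reached from 0.646 to 1.51, so that changes within these bounds are not excluded. The sign turned when L-RalyKO mouse 2 or 3 or control mouse 1 or 2 was left out, up to a log2 fold change of 0.16.

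Both classic enzymes were highest in L-RalyKO mouse 1 and in control mouse 2 of their groups. Csad, which makes a precursor of the taurine used for conjugation and was chosen for this comparison after its values were seen, was also highest in these mice, at 180, 150 and 84.2 in the L-RalyKO mice and 133, 163 and 81.6 in the controls. Nr0b2, which encodes the repressor SHP, was lowest in the same mice, at 12.3, 19.1 and 12.6 and at 10.6, 8.17 and 12.4. Its values in L-RalyKO mice 1 and 3 were nearly level. Of the clock genes, Nr1d1 (71.8, 45.8 and 42.2 against 45.3, 49.6 and 39.95) and Dbp (130, 122 and 106 against 109, 128 and 104) were also highest in these mice. They were picked after their values were seen, and of all 17 tested clock genes only 3 had this order. It was shared by 5 of the 10 members, the classic enzymes, Akr1d1, Slc27a5 and Baat, some by small margins. Among further bile acid genes, 0 of 13 other enzymes and electron donors and 2 of 5 genes of taurine supply had it. So did 3 of 21 regulators, 4 of 14 transporters and 1 of 7 genes of detoxification. The share of all tested genes with this order is not given here. The same order was found in 4 of 9 tested Kupffer cell and macrophage markers and in 4 of 8 endothelial markers. It was found in 0 of 7 stellate cell, 0 of 4 cholangiocyte, 1 of 9 hepatocyte and 0 of 10 periportal markers. The order was thus not particular to bile acid genes. These are 6 mice of 2 groups and the pattern is a description. The study's text mentions fasting for mice whose genes were measured by qPCR, and the sources used here do not tie a feeding state or a time of day to these libraries. The part of either in these differences was not tested.

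**Figure D2:**
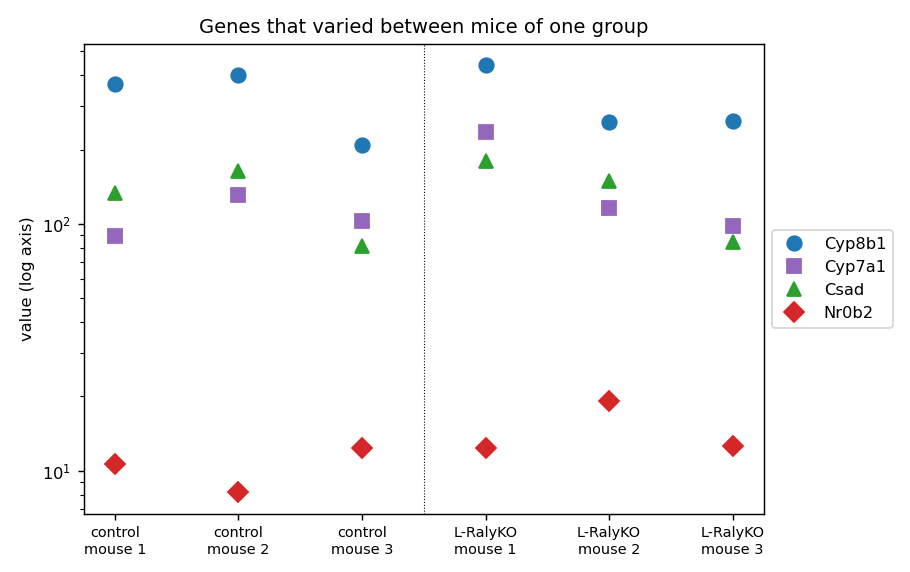
Value (log axis) of Cyp8b1, Cyp7a1, Csad and Nr0b2 in each of the 6 mice. Cyp7a1 (236), Cyp8b1 (439) and Csad (180) peak in L-RalyKO mouse 1 and, among controls, in mouse 2 (131, 402 and 163), where Nr0b2 is lowest (8.17).

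Cyp27a1, the mitochondrial sterol 27-hydroxylase whose promoter is printed above, was measured at 573, 526 and 488 in L-RalyKO livers and at 417, 417 and 425 in control livers. The controls were nearly equal, and every L-RalyKO mouse was above all of them. The means were 529 ± 42.3 and 420 ± 4.20, a log2 fold change of 0.33 (SE 0.063, 95% interval 0.19 to 0.47, limma adjusted p = 0.019). It passed the threshold in each of the 10 alternatives that kept all mice. It no longer did so without L-RalyKO mouse 1 (adjusted p = 0.0607, limma), L-RalyKO mouse 2 (0.057), control mouse 1 (0.0627) or control mouse 2 (0.0563), with a log2 fold change between 0.27 and 0.39 over all leave-one-out fits.

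Cyp7b1, the oxysterol 7-alpha-hydroxylase, was measured at 222, 195 and 227 in L-RalyKO livers and at 139, 182 and 158 in control livers. The lowest L-RalyKO mouse was above the highest control by a small margin. The means were 214 ± 17.1 and 160 ± 21.2, a log2 fold change of 0.43 (SE 0.097, 95% interval 0.21 to 0.65, limma adjusted p = 0.0377). The call was lost without L-RalyKO mouse 1 (adjusted p = 0.12, limma), L-RalyKO mouse 3 (0.106), control mouse 1 (0.0939) or control mouse 3 (0.0696). It was called in 7 of the 10 alternatives that kept all mice, and those in which it was lost included the limma fit without an intensity trend (0.0736) and that of all genes with a read (0.0745). The log2 fold change was between 0.33 and 0.52 over all fits that left out 1 mouse.

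Cyp7b1 is known as a gene that is higher in male than in female mouse liver, and other genes of this kind lay on both sides of 0. Of 14 tested genes with male-biased expression in liver, Cyp7b1 included, limma called 4 higher and 0 lower, beside 3.36% and 3.19% of all genes. At an unadjusted limma p under 0.05, 7 were higher and 2 lower, beside 11.8% and 10.9%. EdgeR and DESeq2 each called 3 higher and 1 lower. The 14 genes had a median log2 fold change of 0.27. Their summed value was 11820 to 14030 in the L-RalyKO mice and 8435 to 9754 in the controls, and without Serpina1e 9024 to 9493 and 6350 to 8412. Mup20 weighed most in the latter sums, at 5083, 5274 and 5639 against 2984, 2759 and 5261. Its groups overlapped and it was not called (log2 fold change 0.60, limma adjusted p = 0.134). Selenbp2 was at 469, 325 and 435 against 89.7, 157 and 103 (log2 fold change 1.83, limma adjusted p = 0.0022, and 0.00818 without control mouse 1). Serpina1e (0.95, 0.0464) and Nudt7 (0.23, 0.0332) passed as well. Serpina1e kept its call only without control mouse 2 and Nudt7 lost it whichever mouse was left out, at adjusted p values of up to 0.124 and 0.101. In the other direction, Bcl6, a transcriptional repressor, was at 8.99, 12.6 and 10.2 against 59.3, 48.2 and 13.9 (-1.62, 0.0654), and Cyp2u1 had a log2 fold change of -0.29 (0.0907), both without overlap of the groups. These 2 genes were picked after their values were seen.

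Of 7 tested female-biased genes limma called 3 lower and 0 higher, beside 3.19% and 3.36% of all genes. At an unadjusted limma p under 0.05, 5 were lower and 0 higher, beside 10.9% and 11.8%. EdgeR called 2 lower and 0 higher. The median log2 fold change was -0.49. The 7 genes summed to 104 to 119 in the L-RalyKO mice and 173.5 to 207 in the controls, and without Cyp2b9 to 102 to 118 and 108 to 168.5, which overlap. Cyp2b9, a cytochrome P450, was at 0.873, 2.15 and 3.18 against 65.2, 48.9 and 36.3 (log2 fold change -4.10, limma adjusted p = 0.0004). Cyp2b13 was at 0, 0.029 and 0.0526 against 2.12, 1.26 and 2.97, and Abcd2 had a log2 fold change of -0.52 (0.0475), a call kept only without control mouse 1 (adjusted p of up to 0.124 in the others). Selenbp2, Serpina1e, Cyp2b9 and Cyp2b13 have close paralogs whose reads the counting could split. The part of these groups of genes in the difference of Cyp7b1 was not tested.

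Cyp39a1, the 24-hydroxycholesterol 7-alpha-hydroxylase, was measured at 26.7, 30.5 and 31.6 in L-RalyKO livers and at 12.8, 17.9 and 24.2 in control livers. All L-RalyKO mice were above all controls, and the controls differed among themselves by 1.89-fold. The means were 29.6 ± 2.59 and 18.3 ± 5.70 (1.62-fold), the largest log2 fold change among the members, 0.70 (SE 0.18, 95% interval 0.28 to 1.12), which did not pass the test (limma adjusted p = 0.0595). Without control mouse 3, the highest of its group, it was 0.92 with an adjusted p of 0.00818 (limma), and without control mouse 1 it was 0.48 (0.0999).

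**Figure D3:**
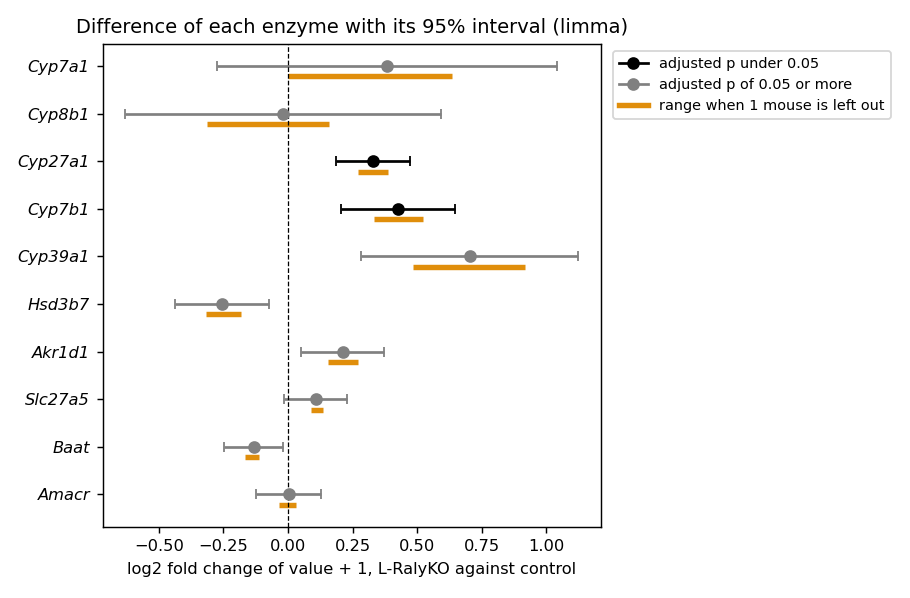
Log2 fold change of each enzyme, L-RalyKO against control (x axis, log2 of value + 1), with the 95% interval of limma and, as orange bars, the range when 1 mouse is left out. Cyp27a1 (0.33) and Cyp7b1 (0.43) passed the test, and the interval of Cyp8b1 (-0.63 to 0.59) and of Cyp7a1 (-0.27 to 1.04) is several times as wide as that of Amacr (-0.12 to 0.13).

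Hsd3b7, the 3-beta-hydroxysteroid dehydrogenase that acts in both pathways after 7-alpha-hydroxylation, was measured at 318, 288 and 272 in L-RalyKO livers and at 387, 337 and 326 in control livers. Every L-RalyKO mouse was below every control, control mouse 1 being the highest. The means were 293 ± 23.4 and 350 ± 32.3 (0.836-fold), and the log2 fold change of -0.26 did not pass (95% interval -0.44 to -0.07, limma adjusted p = 0.0963). Without control mouse 1 it was -0.18 (adjusted p = 0.243), and DESeq2 with all mice called it lower (adjusted p = 0.026). Setd1a, which overlaps it, was at 38.7, 37.9 and 33.2 against 30.2, 31.3 and 33.4, with a log2 fold change of 0.20 and thus of the other sign (adjusted p = 0.134).

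Akr1d1, the steroid 5-beta-reductase that bends the ring system into the shape of a bile acid, was measured at 233, 223 and 206 in L-RalyKO livers and at 176, 207 and 189 in control livers. The groups met, as L-RalyKO mouse 3 was level with control mouse 2. The means were 221 ± 13.6 and 191 ± 15.6, a log2 fold change of 0.21 that did not pass (95% interval 0.05 to 0.37, limma adjusted p = 0.117).

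Amacr, the racemase that prepares the side chain for its shortening in peroxisomes, was measured at 144, 141 and 155 against 148, 152 and 139. Its means of 147 ± 7.17 and 146 ± 6.59 were closer than the mice of either group, and the 95% interval of the fold was 0.919 to 1.09 (limma adjusted p = 0.979).

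Slc27a5, the bile acid-CoA ligase that activates bile acids for conjugation, was measured at 1058, 1058 and 995 in L-RalyKO livers and at 963, 987 and 937 in control livers. Baat, which then joins them to taurine or glycine, was measured at 226, 209 and 212 against 230.2, 241 and 239.7. The 2 conjugation enzymes thus lay on opposite sides of the controls, each without overlap of the groups. The differences were small, 1.08-fold for Slc27a5 (log2 fold change 0.11, 95% interval -0.01 to 0.23, limma adjusted p = 0.277) and 0.911-fold for Baat (-0.13, -0.25 to -0.02, adjusted p = 0.151), and neither passed under any of 16 alternatives.

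Levels of different genes were compared per kilobase of the transcript with the longest coding sequence. For Hsd3b7 this transcript has 1828 bases, while all its annotated exons cover 6154, of which 57.2% overlap Setd1a. Division by the larger number would give Hsd3b7 a lower value, so its rank depends on this choice. In the controls Slc27a5 was the highest at a mean of 421 per kb, followed by Cyp27a1 at 222. Hsd3b7 (178 to 211 in the 3 controls), Cyp8b1 (107 to 206) and Baat (119 to 124) came next, and the spread of Cyp8b1 covered much of Hsd3b7 and all of Baat. Cyp7b1 (64.4 to 84.0 per kb) and Akr1d1 (65.2 to 76.7) were not separated by their spread, and Amacr was at 54.0 to 58.9. Cyp7a1, the rate-limiting enzyme, was ninth of the members at 25.8 per kb and Cyp39a1 was last at 6.00. By these transcript lengths only Cyp8b1 (164 per kb) and Hsd3b7 (160) exchanged places in the L-RalyKO mice, and their ranges overlapped in both groups.

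**Figure D4:**
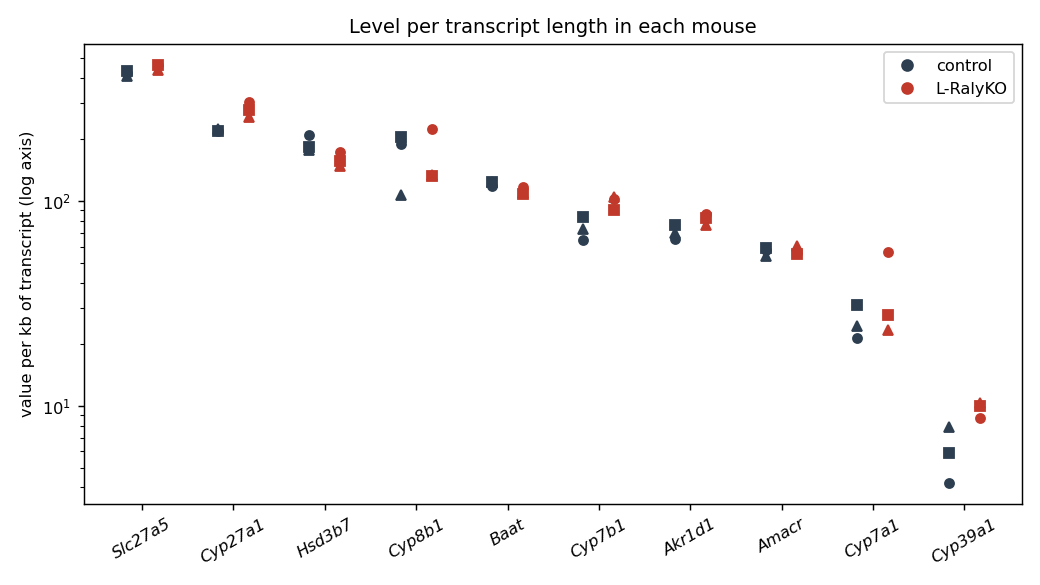
Value per kilobase of transcript (log axis) of each enzyme in the 3 control and 3 L-RalyKO mice (circle, square and triangle for mice 1, 2 and 3). The members span from 421 per kb for Slc27a5 to 6.00 per kb for Cyp39a1 in the controls.

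The enzymes act with electron donors and with other oxidases, and a donor of microsomal and a donor of mitochondrial cytochrome P450 enzymes rose in L-RalyKO livers. Of 13 tested genes in this group limma called 2 higher and 1 lower, beside 3.36% and 3.19% of all genes. At an unadjusted limma p under 0.05, 4 were higher and 2 lower, beside 11.8% and 10.9%. EdgeR called 2 higher and 1 lower, and DESeq2 3 and 2. The median log2 fold change was 0.07. Por, the reductase that gives electrons to microsomal P450 enzymes such as CYP7A1, CYP8B1 and CYP7B1, was at 948, 966 and 874 in the L-RalyKO mice and at 546, 631 and 672 in the controls (log2 fold change 0.60, limma adjusted p = 0.0053), and was called in all 16 alternatives. Fdx1, the ferredoxin that serves mitochondrial P450 enzymes such as CYP27A1, was at 69.3, 73.8 and 71.5 against 57.2, 60.1 and 52.7 (0.33, adjusted p = 0.0148), and its call was lost only without L-RalyKO mouse 2 (0.0539). For both genes every L-RalyKO mouse was above every control. Cyp46a1, a cholesterol 24-hydroxylase best known from the brain, was low in liver and fell, at 3.40, 3.39 and 2.39 against 8.35, 7.22 and 4.95 (-0.93, adjusted p = 0.0185), a call that did not hold without L-RalyKO mouse 3 (0.0545), control mouse 1 (0.0597) or control mouse 2 (0.0559). Of the 5 tested genes of taurine supply none was called by limma, edgeR or limma voom, 1 was higher at an unadjusted p under 0.05, and DESeq2 called 1 higher.

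Among 21 tested regulators of bile acid synthesis limma called 5 higher and 0 lower, beside 3.36% and 3.19% of all genes. At an unadjusted limma p under 0.05, 7 were higher and 2 lower, beside 11.8% and 10.9%. EdgeR called 5 higher and 0 lower, and DESeq2 5 and 1. The median log2 fold change was 0.05. Hnf4a, a nuclear receptor of hepatocytes that binds the promoters of several members, was at 900, 809 and 829 in the L-RalyKO mice and at 520, 542 and 680 in the controls (0.55, limma adjusted p = 0.0155). Its call was lost without L-RalyKO mouse 1 (0.0617), control mouse 1 (0.0509) or control mouse 2 (0.051). Zfp36l1, an RNA-binding protein that shortens the life of mRNAs, was at 174, 175 and 135 against 78.2, 77.6 and 93.3 (0.94, adjusted p = 0.0028). Foxa2, a forkhead factor, was at 33.0, 28.9 and 21.3 against 13.3, 13.9 and 16.7 (0.86, adjusted p = 0.0126; 0.0501 without control mouse 1). In all 3 genes no L-RalyKO mouse overlapped the controls. Mafg, a repressor induced by FXR, and Nr1i2, which encodes the xenobiotic receptor PXR and is named here because it completes the 5, had log2 fold changes of 0.35 (adjusted p = 0.0111) and 0.33 (0.0072) and were called in all 16 alternatives.

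The receptors and the repressor SHP of the feedback described above did not pass. Nr1h4, which encodes FXR, had a log2 fold change of -0.12 (limma adjusted p = 0.342), and its target Nr0b2 one of 0.45 (0.184; unadjusted p = 0.0357, limma). Fgfr4 had one of 0.05 (0.75) and its partner Klb one of -0.31 (0.196; unadjusted p = 0.04, limma). Nr5a2, an activator of Cyp7a1 and Cyp8b1, had one of -0.15 (0.23).

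**Figure D5:**
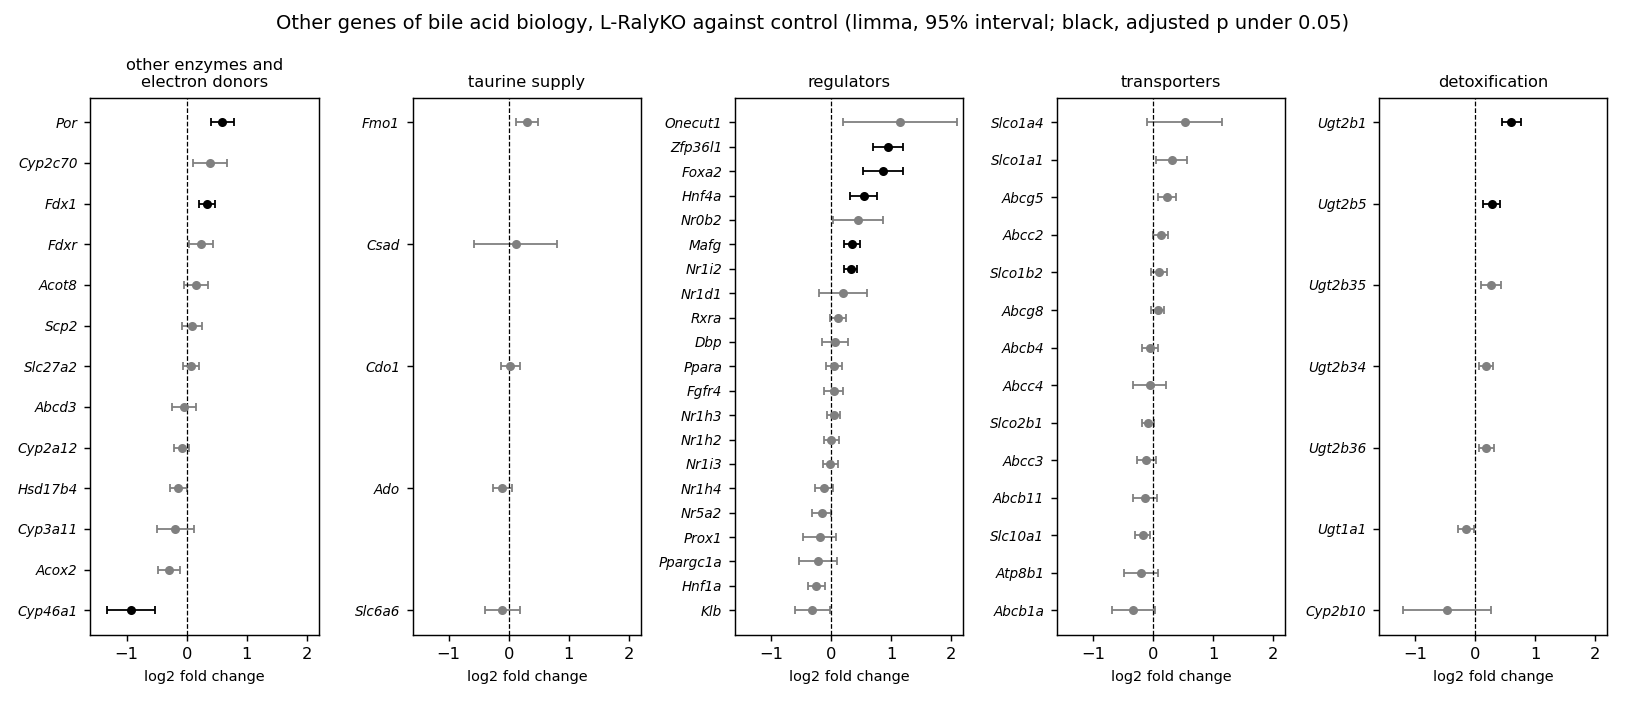
Log2 fold change (x axis) with the 95% interval of limma for each tested gene of 5 further groups, L-RalyKO against control, black where the adjusted p was under 0.05. Por (0.60), Zfp36l1 (0.94), Foxa2 (0.86), Hnf4a (0.55) and Ugt2b1 (0.60) stand to the right of 0 and Cyp46a1 (-0.93) to the left, while no transporter passed.

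Of 14 tested transporters of bile acids and bile lipids 0 were called by limma, edgeR or limma voom, and DESeq2 called 1 higher and 1 lower. At an unadjusted limma p under 0.05, 3 were higher and 1 lower, beside 11.8% and 10.9% of all genes. Slc10a1, the main uptake carrier for conjugated bile acids, was at 593, 624 and 567 in the L-RalyKO mice and at 683, 681 and 646 in the controls, without overlap (log2 fold change -0.17, limma adjusted p = 0.104). Abcb11, the bile salt export pump, overlapped (-0.14, 0.401). Of 7 tested genes of detoxification limma called 2 higher and 0 lower, beside 3.36% and 3.19% of all genes. At an unadjusted limma p under 0.05, 5 were higher and 1 lower, beside 11.8% and 10.9%. EdgeR called 2 higher and 0 lower, and DESeq2 5 and 0. The median log2 fold change was 0.19. Ugt2b1, a glucuronosyltransferase, was at 884, 827 and 740 against 525, 534 and 552 (0.60, adjusted p = 0.0025, and 0.0119 without control mouse 1), and Ugt2b5 was called at 0.27 (0.0354) but in none of the 6 fits without 1 mouse (0.0501 to 0.114). Reads of the Ugt2b genes may be split between close paralogs.

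Hepatocyte markers were abundant in all mice. Over 9 such markers the summed value was 103300 to 104100 in the L-RalyKO mice and 91940 to 101500 in the controls, with all 9 log2 fold changes above 0. Without Alb the sums were 32990 to 33260 and 28080 to 30520. Of the 9 markers, limma and edgeR called 1 higher (Hnf4a), beside 3.36% and 3.25% of all genes. DESeq2 called 4 higher, beside 4.65%, and 4 were higher at an unadjusted limma p under 0.05, beside 11.8%. The 10 markers of periportal hepatocytes summed to 9287 to 9561 against 6503 to 7774, and without Pck1, a gluconeogenic enzyme, to 3886 to 4234 against 3510 to 4149, which overlap. Pck1 was the 1 of 10 called (log2 fold change 0.78, limma adjusted p = 0.0031, and 0.012 without control mouse 1), while DESeq2 called 2, upper-quartile scaling 3 and the limma fit without control mouse 3 called 5. At an unadjusted p under 0.05, 5 of the 10 were higher and 0 lower, beside 11.8% and 10.9% of all genes, 9 had log2 fold changes above 0, and in 3 the L-RalyKO mice were all above the controls. Pericentral markers summed to 11790 to 12850 against 10800 to 11790, and without Cyp2e1 to 2480 to 2953 against 2446 to 2600, which overlap. Among these 10, Tbx3 was called lower by limma (-0.62, adjusted p = 0.0043, and 0.0114 without control mouse 1), as was Lgr5 (-0.53, 0.0441), a call kept only without L-RalyKO mouse 1, and Cyp1a2 was called higher (0.48, 0.0441), a call kept only without L-RalyKO mouse 2 or control mouse 2. EdgeR called 0 of the 10 pericentral markers higher, and so not Cyp1a2, and 1 lower. DESeq2 called 1 higher and 2 lower. Of 17 tested clock genes 5 were higher and 3 lower at an unadjusted limma p under 0.05, beside 11.8% and 10.9% of all genes. DESeq2 called 4 clock genes higher and 1 lower, beside 4.65% and 4.72% of all genes. By limma and edgeR 1 was called, Nfil3, higher (0.73, limma adjusted p = 0.0185), with 0.0555 to 0.0613 when any 1 L-RalyKO mouse was left out.

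Markers of other liver cells had overlapping ranges in both groups. Over the tested genes the sums were 41.5 to 49.8 in the L-RalyKO mice and 43.7 to 48.1 in the controls for cholangiocytes (4 genes), 186 to 240 and 179 to 275 for Kupffer cells, 266 to 331 and 300 to 308 for endothelial cells, 211 to 278 and 220.1 to 245 for stellate cells, and 4.70 to 7.39 and 6.20 to 7.79 for lymphocytes, of whose markers only Ptprc was tested. None of their tested genes was called by limma or edgeR, 2 were higher and 1 lower at an unadjusted p under 0.05, and DESeq2 called 1, a cholangiocyte marker, higher. The part of these cell types and of hepatocyte zones in the members' differences was not tested.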

How the data were processed

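Liver RNA-seq of 6 mice was analysed, and the 13 ATAC-seq and ChIP-seq samples of the 19 were not analysed here. Columns were matched to mice by virus and replicate number. Members and gene lists were chosen with earlier results of these data known.

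The authors aligned stranded paired reads with TopHat v2.0.2 to mm9 and used Cufflinks 2.0.2. The values they deposited are a normalized signal, and how these were made is not given in the sources used here. They were whole multiples of 1 read (100% of values, tolerance 0.01), scaled to each library's total times a factor that differed from edgeR's TMM factor by at most 3.5e-06. No column holds comparisons by the authors.

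The groups' log2(value + 1) was compared by limma 3.58.1 (R 4.3.3), with an intensity trend and a minimum mean value of 1, which 11580 genes reached (6838 symbols had no read). The fit was tested on simulated data first. A fold change on this scale understates that of low genes. EdgeR 4.0.16 on the recovered reads called 376 genes higher and 355 lower. Further alternatives were DESeq2 1.42.0, limma voom, no intensity trend, a pseudocount of 0.1, a minimum mean of 5 or of 1 read, other scalings, a replicate block and leaving out each mouse.

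All members were named, and of each other list the called genes, up to 4 per direction by size of change, together with Nr1h4, Nr0b2, Fgfr4, Klb, Nr5a2, Hnf4a, Slc10a1 and Abcb11. Csad, Setd1a, Nr1i2, Bcl6, Cyp2u1, Mup20, Nr1d1 and Dbp were named after their values were seen. Not matched in the table by symbol were Diet1, Sult2a8, Tf and Adgre1, and the filter removed Ch25h, Vdr, Gadl1, Slc51a, Slc51b, Sult2a1 and Sult2a2 from the lists of bile acid genes. Annotation was GENCODE vM1, and promoters were from RefSeq.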

Additional observations from a re-analysis of the deposited data

How the results depend on the processing

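The 10 members and Raly were computed under 16 alternatives. Raly was called in all of them, and no member that was called changed direction. The number of members called higher was 2, and it was 1 without the intensity trend and 1 when all genes with at least 1 read were tested, as Cyp7b1 then missed the threshold (limma adjusted p = 0.0736 and 0.0745). It ranged from 0 to 2 when 1 mouse was left out. The number called lower was 0, and it was 1 with DESeq2 and 1 with the replicate block, in both cases Hsd3b7. Over all genes 758 were called, 484 when all genes with at least 1 read were tested, and 332 to 813 when 1 mouse was left out. Cyp8b1, with a log2 fold change of -0.02, ranged from -0.31 to 0.16 and was 0.11, 0.10, 0.098 and 0.16 without L-RalyKO mouse 2, L-RalyKO mouse 3, control mouse 1 and control mouse 2. Amacr, at 0.0035, was -0.031 with total count scaling and ranged from -0.036 to 0.029 when 1 mouse was left out. The cause was not tested in any of these cases.

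The sources used here do not say whether the replicate numbers pair the mice. Same-numbered mice had correlations of their deviations of 0.0664, -0.0238 and 0.0196, beside -0.0878 to 0.0599 for the other pairs. With 3 mice a group these values cannot decide it. With the replicate block 704 genes were called, Cyp7b1 missed the threshold (limma adjusted p = 0.0678), and Cyp39a1 (0.0232) and Hsd3b7 (0.0264) passed it. The members had 430 to 37810 reads per mouse, and whether depth or the number of mice limits their precision more was not compared.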

Other observations

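Within single mice, the value of Cyp8b1 relative to Cyp7a1, not scaled for length, was 1.86, 2.23 and 2.68 in L-RalyKO mice 1 to 3 and 4.13, 3.08 and 2.04 in control mice 1 to 3, so the groups overlapped. The value of Baat relative to Slc27a5 was 0.214, 0.198 and 0.213 in the L-RalyKO mice and 0.239, 0.244 and 0.256 in the controls, so every L-RalyKO mouse was below every control. An exact permutation test could not give a p under 0.1 for either ratio, and both were chosen after the values of the genes were seen.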
